A study of Mus musculus with 3 samples.

Results

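The distal nephron and loop precursor cells described here are 239 of 5110 cells, or 4.68%, of the wild-type mouse kidney at E14.5, a mid-gestation embryonic stage. They were chosen by what they expressed. A cell was taken when at least 3 of 7 genes were detected in it (Sostdc1, Tmem52b, Slc12a1, S100g, Mal, Npb and Tfap2b) and fewer than 2 of 4 genes of the ureteric epithelium (Ret, Wnt11, Krt23 and Ehf). Detection meant 1 or more transcript molecules, counted as UMIs, in Drop-seq and 10x Chromium, and 20 or more reads in Fluidigm C1. These cells are called the distal cells below. The levels of the 11 genes in them follow from the choice and are given as descriptions, with no test.

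The kidneys came from wild-type mice of a mixed strain, mostly CD-1 and 129, and all groups compared below share that genotype, strain and age. One library was made on each of 3 platforms. Drop-seq and 10x Chromium capture cells in droplets, and Fluidigm C1 captures them in the chambers of a chip. Each platform has 1 library, so a difference between platforms cannot be told apart from a difference between kidneys, and no label says how many embryos or kidneys were pooled. The rule found 117 of 1964 cells in Drop-seq (5.96%, exact 95% binomial interval 4.95 to 7.10%), 102 of 2252 in 10x (4.53%, 3.71 to 5.47%) and 20 cells in C1 (2.24% of all, 1.37 to 3.43%). The interval covers counting error only, and the share moves with depth: with each cell thinned to 4000 UMIs, or 50000 reads in C1, and shallower cells left out, 73 of 1924, 71 of 1900 and 5 of 852 cells met the rule (3.79%, 3.74% and 0.587%). The deposited tables total 17968883 counts in Drop-seq, 18113966 in 10x and 173799153 reads in C1, of which the distal cells hold 1174674, 743059 and 4703490 over the genes that the tables share.

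As background, the nephron forms from a vesicle of mesenchymal origin that elongates and is patterned into proximal and distal ends. Its distal end gives rise to the thick ascending limb of the loop of Henle and to the distal tubule, and fuses with the ureteric bud, which becomes the collecting duct. The thick ascending limb takes up sodium, potassium and chloride through Slc12a1 (NKCC2), returns potassium through the channel Kcnj1 (ROMK) and lets calcium and magnesium pass between its cells through a pore that needs Cldn16 and Cldn19. The distal and connecting tubules handle calcium with the buffers Calb1 and S100g, and Gata3 is a transcription factor of the ureteric bud and of the distal end that joins it.

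Slc12a1 and Gata3 were seldom detected in the same distal cell, as described at the end. The upstream sequence of both genes is shown for that reason, as RefSeq gives it on GRCm38.p6, 5′ to 3′ on the coding strand and ending before the first annotated transcript start in the window. The first is chr2:9878601-9878850 on the minus strand, and the second is chr2:125152350-125152504 on the plus strand. Capitals mark the GC box, GGGCGG, the only one found of 4 motifs searched.
Gata3: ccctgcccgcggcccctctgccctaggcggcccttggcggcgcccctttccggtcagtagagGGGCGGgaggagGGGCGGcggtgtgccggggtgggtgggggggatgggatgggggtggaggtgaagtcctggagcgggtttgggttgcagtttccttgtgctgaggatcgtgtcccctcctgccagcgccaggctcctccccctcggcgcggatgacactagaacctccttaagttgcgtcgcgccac
Slc12a1: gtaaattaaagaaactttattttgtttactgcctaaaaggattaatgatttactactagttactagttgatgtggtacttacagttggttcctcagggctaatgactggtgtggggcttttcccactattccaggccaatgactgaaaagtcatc
The GC box was present at 2 places in the Gata3 sequence and at none in the Slc12a1 sequence, and 32.7% of 32851 RefSeq promoters of 250 bases held it on either strand. A TATA box (TATAAA, coding strand, in 7.59% of promoters), an HNF1 motif (GTTAAT, either strand, 6.43%) and a GATA site (AGATAA, either strand, 9.99%) were in neither sequence. The 2 sequences differ in length, at 250 and 155 bases, and a match or its absence says only whether these letters stand in these windows.

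Among the 7 genes of the rule, Sostdc1, a secreted antagonist of BMP and WNT ligands, and Tfap2b, a transcription factor of the AP-2 family, were found in most distal cells. Sostdc1 was detected in 103 of 117 distal cells in Drop-seq, 92 of 102 in 10x and 16 of 20 in C1, and Tfap2b in 103, 93 and 15. Mal, a small membrane protein of apical sorting, was detected in 73, 85 and 13 distal cells, and the membrane protein gene Tmem52b in 75, 60 and 16. The calcium buffer gene S100g was detected in 64, 37 and 8, the transporter gene Slc12a1 in 40, 47 and 3, and Npb, which encodes neuropeptide B, in 31, 47 and 2. Slc12a1 and Npb were the 2 least often detected in Drop-seq and C1, and S100g was the least often detected in 10x. Few distal cells carried the whole set: all 7 were detected in 4 of 117 in Drop-seq, 4 of 102 in 10x and 0 of 20 in C1.

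**Figure D1:**
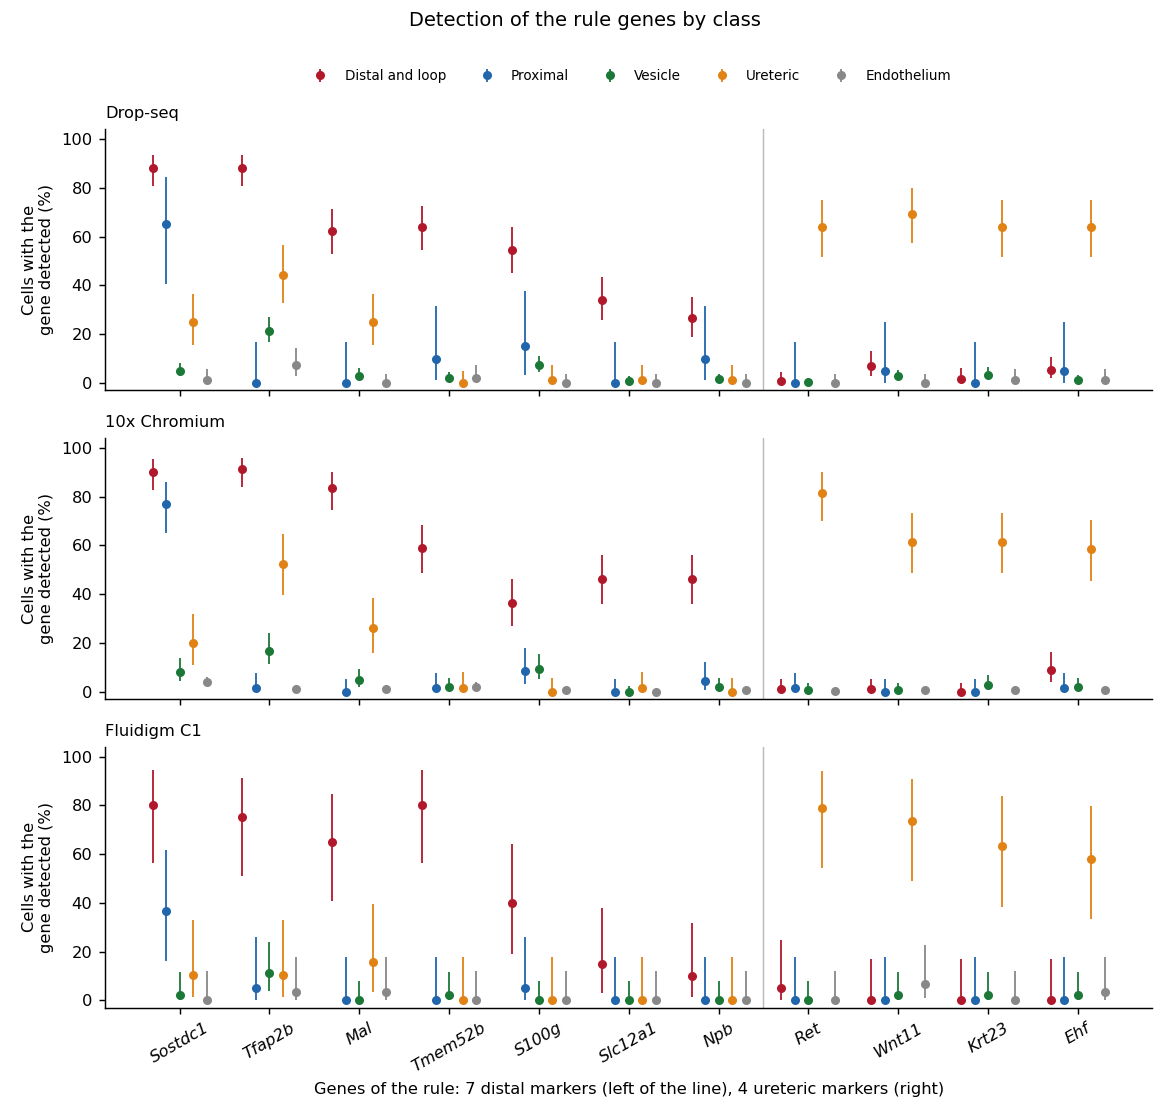
Percentage of cells (vertical axis) in which each of the 7 distal and 4 ureteric genes of the rule was detected, in 5 cell classes and in the 3 libraries, 1 panel each. Bars through the points are exact 95% binomial intervals, which cover counting error only; the distal cells stand highest for the 7 distal genes by choice, while Sostdc1 was also common in proximal cells and Tfap2b in ureteric cells.

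The 7 genes were not equally particular to these cells. Sostdc1 was detected in 65.0%, 76.8% and 36.8% of the proximal tubule precursor cells on the 3 platforms, and Tfap2b in 44.4%, 52.3% and 10.5% of the ureteric cells. Slc12a1, in contrast, was found in 0 of 20, 0 of 69 and 0 of 19 proximal cells, which allows shares of up to 15%, 4.35% and 15.8%, and in 1 of 72, 1 of 65 and 0 of 19 ureteric cells. Endothelial cells, which should lack these genes, serve as the background from free RNA: Sostdc1 was detected in 1.03%, 3.82% and 0% of them and Slc12a1 in 0 of 97, 0 of 393 and 0 of 29, which allows up to 3.09%, 0.763% and 10.3%. Tfap2b was detected in 7.22%, 1.02% and 3.45% of the endothelial cells, the highest of the 7 genes in Drop-seq. Median depth was 9429, 6784 and 178016 counts per distal cell, against 6854, 8271 and 185534 counts per endothelial cell.

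Values change at the limit of the rule, which is given as a description with a few genes outside it, picked as examples. Atp1b1, the beta subunit of the sodium pump, stood at 436, 569 and 66.4 counts per 1000000 (CPM) in distal cells with exactly 3 of the 7 genes and at 1288, 1675 and 245 CPM in those with 4 or more, against 388, 329 and 15.9 CPM in cells just outside with 2. The order of values is Drop-seq, 10x and C1 here and wherever 3 values follow each other, and each is taken over the summed counts of the cells of 1 library. Cldn19 stood at 31.6, 10.2 and 24.7 CPM in cells with 3 genes and 47.8, 123 and 61.2 CPM in those with 4 or more, against 13.5, 8.48 and 6.25 CPM in cells with 2. Gata3 and Calb1 did not rise in this way. Gata3 stood at 65.5, 214 and 50.3 CPM with 3 genes and 119, 104.3 and 136 CPM with 4 or more. In cells with 2, Gata3 stood at 124, 231 and 175 CPM. Calb1 stood at 181, 712 and 6.41 CPM with 3 genes and 111, 183 and 1001 CPM with 4 or more. In cells with 2, Calb1 stood at 316, 411 and 1049 CPM. Both were highest in the cells just outside, except Calb1 in 10x. Of the distal cells, 41, 27 and 10 had exactly 3 genes. The 4 ureteric genes had kept out 18, 8 and 1 cells that otherwise met the rule.

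As a check of the label, 4 genes of mature segments that the rule did not use were looked up, and they were low or hardly detected. Kcnj1 had 25, 37 and 27 counts in distal cells (21.3, 49.8 and 5.74 CPM), against 0 counts in proximal, vesicle and ureteric cells on all platforms. It was too low for the tests between these classes and was tested only in the division by Slc12a1. Umod, the protein secreted by the mature thick ascending limb, had 1, 17 and 0 counts in distal cells. Slc12a3, the transporter of the distal convoluted tubule, had 0, 1 and 0, and Aqp2, the water channel of collecting duct principal cells, had 0, 6 and 0. The label of the cells therefore rests on the genes of the rule and, outside it, on Kcnj1 and the genes compared below, while Umod, Slc12a3 and Aqp2 were scarcely detectable at this depth.

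Markers of other cells were also present. Of the distal cells, 80 met the rule of another class, leaving the genes of red cells aside, and 63 of these met that of the pretubular aggregate and renal vesicle. The 7 vesicle markers summed to 601, 357 and 226 CPM in distal cells, against 1527, 1192 and 1086 CPM in vesicle cells. The 5 markers of the cap mesenchyme summed to 99.6, 130.5 and 363.6 CPM in distal cells. Their sums were 38.3, 37.1 and 127 CPM in proximal cells and 90.0, 69.1 and 293 CPM in vesicle cells. In ureteric cells they were 40.1, 34.2 and 103.6 CPM, so the distal cells had the highest of these sums in each library. The 7 stromal markers, all above 0 in each library, summed to 299, 124 and 122 CPM in distal cells, against 45.9 to 132 CPM in proximal cells, 49.4 to 133 CPM in vesicle cells and 25.5 to 157 CPM in ureteric cells, so they were higher in the distal cells of Drop-seq and 10x but not of C1. The 5 red cell markers summed to 4073, 32.3 and 0 CPM in distal cells, against 605, 37.1 and 0.279 CPM in proximal cells, 2804, 984.6 and 6.39 CPM in vesicle cells and 442, 26.1 and 12.5 CPM in ureteric cells, so the signal was highest in Drop-seq in each of these classes. Counts of the endothelial markers were 20.4, 8.07 and 229 CPM and of the immune markers 30.6, 33.6 and 33.6 CPM in distal cells, against 0 to 58.5 CPM for the endothelial and 0 to 40.1 CPM for the immune markers over proximal, vesicle and ureteric cells. What part these other transcripts have in the differences below was not tested; the counts of changed genes without the cells that met another rule are given with the alternatives.

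To ask what else set the distal cells apart, their counts were summed per library and compared with 3 other epithelial classes in 1 model. The proximal tubule precursors numbered 20, 69 and 19 cells (3 or more of 7 genes, among them Fbp1, Spp2, Cubn, Lrp2, Hnf4a and Slc34a1). The pretubular aggregate and renal vesicle cells, called vesicle cells here, numbered 261, 148 and 45 (3 or more of Wnt4, Fgf8, Dll1, Tmem100, Lhx1, Pax8 and Jag1), and the ureteric cells 72, 65 and 19 (2 or more of Ret, Wnt11, Krt23 and Ehf). Every gene used by a class rule was kept out of the tests, but the tested genes were measured in the same cells that the rules had picked. The 3 libraries served as the replicates, the library was a term of the model, and p-values were adjusted over 10109 genes, so they measure the spread between single libraries of 3 platforms. The 3 comparisons share the distal cells and are not independent of each other. Genes named beyond a fixed rule of naming, among them the Irx and Notch genes, were picked as examples after their values were seen.

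Against proximal cells, the distal cells had more of the transcripts of several regulators and of 4 claudins (Cldn3, Cldn4, Cldn8 and Cldn19), and little of the transport and endocytosis genes of the proximal tubule. Of 10109 genes, 357 were higher (3.53%) and 357 lower (3.53%) in the distal cells by edgeR at an adjusted p under 0.05, or 7.06% in both directions. Of 24 tested regulators of the distal nephron and loop, 11 were higher and 2 lower, with a median log2 fold change of 1.39, against 0.062 over all genes tested. Gata3 stood at 98.8, 133 and 96.1 CPM in distal cells, against 0, 8.24 and 0.558 CPM in proximal cells (log2 fold change 6.28, SE 0.50, edgeR adjusted p = 2.51e-06). Mecom, a zinc finger transcription factor, stood at 283, 331 and 144 CPM, against 0, 6.18 and 17.3 CPM in proximal cells (log2 fold change 3.83, SE 0.38, edgeR adjusted p = 1.42e-05). For both genes every distal sum was above every proximal one, and without C1 the log2 fold changes were 4.13 and 5.85. Sox9, a transcription factor of the growing tips and early nephron, stood at 163, 82.1 and 77.2 CPM in distal cells, against 0, 2.06 and 5.30 CPM in proximal cells (log2 fold change 3.79, SE 0.46, edgeR adjusted p = 7.19e-05). Its log2 fold change without C1 was 5.81. Sim1 and Pou3f3, both transcription factors, were higher as well (2.15 and 1.37, SE 0.41 and 0.28, edgeR adjusted p = 0.00341 and 0.00600). Both calls depended on single libraries: without Drop-seq the adjusted p was 0.0947 for Sim1 and 0.0610 for Pou3f3, and without 10x it was 0.193 for Pou3f3.

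Junction and transport genes split the same pair of classes in both directions. Of 29 junction and epithelial genes, 6 were higher and 2 lower in distal cells (median log2 fold change 0.40), and of 16 transport genes of the thick limb and distal tubule, 5 were higher and 2 lower (median 0.77). Cldn8, a claudin of the distal nephron and collecting duct, stood at 103, 128 and 89.5 CPM in distal cells, against 0, 4.12 and 0.140 CPM in proximal cells (edgeR adjusted p = 5.19e-06). The ratio was at least 4.49-fold in Drop-seq, 31.0 in 10x (counting interval 8.36 to 259.9) and 642 in C1 (counting interval 115 to 25401). C1 values are reads, and several reads can come from 1 molecule. The C1 bounds and intervals here and below treat reads as independent counts and are not firm limits. Epcam, an adhesion molecule of epithelia, stood at 867, 584 and 283 CPM, against 291, 146 and 44.1 CPM in proximal cells (log2 fold change 2.12, SE 0.22, edgeR adjusted p = 1.88e-05). Cldn2, the cation pore of the proximal tubule junction, went the other way, at 5.96, 6.73 and 7.65 CPM in distal cells, against 268, 159 and 77.6 CPM in proximal cells (log2 fold change -4.32, SE 0.46, edgeR adjusted p = 2.57e-05). Calb1 stood at 137, 323 and 539 CPM in distal cells, against 0, 26.8 and 8.37 CPM in proximal cells (log2 fold change 5.12, SE 0.49, edgeR adjusted p = 1.19e-05). Fxyd2, the gamma subunit of the sodium pump, stood at 181, 728 and 495 CPM, against 2112, 2054 and 3661 CPM in proximal cells (log2 fold change -2.66, SE 0.28, edgeR adjusted p = 2.53e-05). Every distal sum lay above every proximal sum for Calb1 and below every one for Fxyd2, but both calls were lost without C1, at adjusted p = 0.0729 for Calb1 and 0.0886 for Fxyd2. Bsnd, the barttin subunit of the kidney chloride channels, stood at 9.36, 31.0 and 18.7 CPM in distal cells and at 0 in proximal cells on all platforms (edgeR adjusted p = 0.0163), which with a floor of 3 counts per library is at least 5.01-fold in 10x and at least 44.7-fold in C1 and gives no bound above 1 in Drop-seq. Without Drop-seq its adjusted p was 0.0695 and without 10x 0.155.

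**Figure D2:**
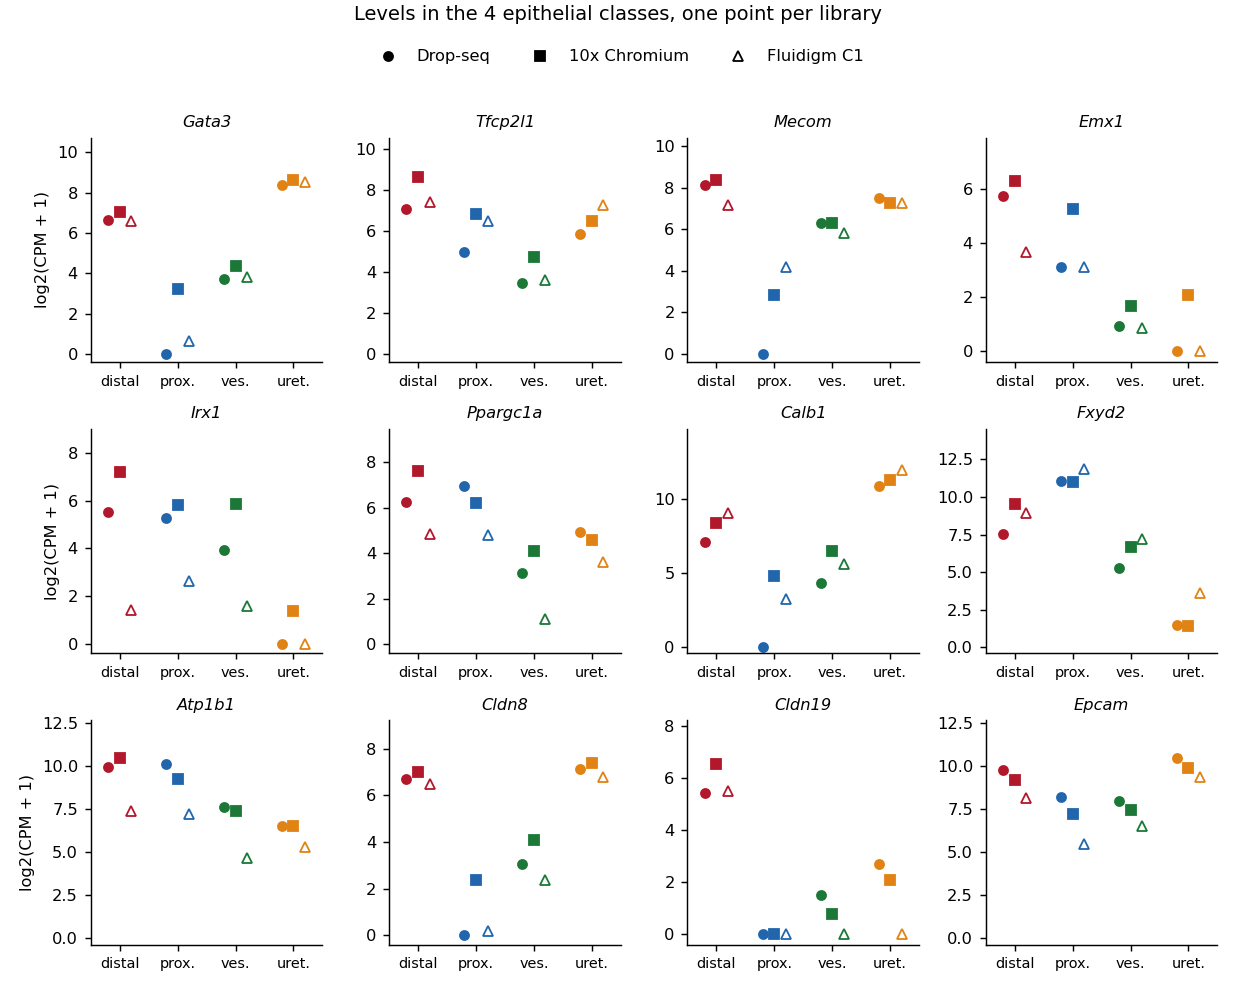
Level of 12 genes as log2(CPM + 1) on the vertical axis in the 4 epithelial classes, with 1 point for each library (Drop-seq, 10x and C1) and the distal cells at the left of each panel. Gata3 and Calb1 in distal cells lay between proximal and ureteric cells, Atp1b1 lay above vesicle and ureteric cells in each library, and Fxyd2 lay below proximal and above vesicle and ureteric cells.

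Of the proximal tubule list, 15 of 24 tested genes were lower and 0 higher (median log2 fold change -2.85). The proximal cells were chosen by other genes of the proximal tubule, so this count is not independent of the choice. Dab2, the adaptor of megalin-driven endocytosis, stood at 25.5, 13.5 and 33.4 CPM in distal cells, against 314, 274 and 261 CPM in proximal cells (log2 fold change -3.54, SE 0.28, edgeR adjusted p = 2.51e-06). Pdzk1, a scaffold of brush border transporters, stood at 16.2, 36.3 and 55.7 CPM, against 842, 688 and 439 CPM (log2 fold change -4.02, SE 0.43, edgeR adjusted p = 2.57e-05). Slc39a5, a zinc transporter, stood at 11.9, 10.8 and 6.38 CPM, against 214, 280.2 and 89.8 CPM in proximal cells (log2 fold change -4.23, SE 0.44, edgeR adjusted p = 2.13e-05). Every distal sum of these genes was below every proximal one. Keg1 was lower to a like degree (-4.33, SE 0.47, edgeR adjusted p = 2.81e-05). Igfbp4 and Igfbp7, which bind insulin-like growth factors, were lower by less (-1.75 and -2.31, SE 0.16 and 0.21, edgeR adjusted p = 7.51e-06 for both), as was Npnt, an integrin ligand of basement membranes (-2.57, SE 0.31, edgeR adjusted p = 6.96e-05). Of 30 genes of the cell cycle, 5 were higher and 0 lower, among them Pcna, the clamp of DNA replication, at 309.9, 63.3 and 346 CPM in distal cells, against 130.1, 49.4 and 161 CPM in proximal cells (log2 fold change 0.89, SE 0.25, edgeR adjusted p = 0.0429, but adjusted p = 0.336 without Drop-seq). None of 19 genes of dissociation stress passed in either direction.

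Outside the lists, the genes named for the largest fitted increases had 0 counts in proximal cells. The rule of naming ranked by fitted change and asked for counts on the higher side only, so it favoured such genes. Prdm16, a zinc finger regulator, stood at 47.7, 48.4 and 47.0 CPM in distal cells and at 0 CPM in proximal cells of all 3 libraries (edgeR adjusted p = 4.10e-05), which with a floor of 3 counts per library is at least 2.08-fold in Drop-seq, at least 7.84-fold in 10x and at least 112-fold in C1. Wscd1, the calcium-binding protein gene Tesc, the mucin gene Muc1 and the adhesion gene Nrcam were also at 0 in proximal cells, against 22.1, 28.3 and 26.2 CPM for Wscd1, 12.8, 31.0 and 16.4 CPM for Tesc, 19.6, 59.2 and 25.3 CPM for Muc1 and 23.0, 18.8 and 18.3 CPM for Nrcam in distal cells. Their bounds against 0 are between 3.05-fold (Nrcam) and 9.58-fold (Muc1) in 10x and between 39.1-fold (Tesc) and 62.5-fold (Wscd1) in C1, and none is above 1.001 in Drop-seq, whose proximal sum holds 20 cells. The edgeR adjusted p was 0.00021 for Wscd1, 0.00159 for Tesc, 0.00798 for Muc1 and 0.0100 for Nrcam. Muc1 lost its call without 10x (adjusted p = 0.0892) and Nrcam without Drop-seq (0.0955) and without 10x (0.0687).

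The largest fitted decreases were in enzymes of the proximal tubule. Ace, the angiotensin-converting enzyme of the brush border, stood at 0.851, 4.04 and 0 CPM in distal cells, against 130.1, 57.7 and 14.1 CPM in proximal cells (log2 fold change -6.19, SE 1.17, edgeR adjusted p = 0.00323). Sod3, the extracellular superoxide dismutase, stood at 0, 1.35 and 0.638 CPM, against 84.2, 70.1 and 21.6 CPM (log2 fold change -6.43, SE 1.21, edgeR adjusted p = 0.00311). Ugt2b37 stood at 1.70, 4.04 and 0.213 CPM in distal cells, against 298, 150.4 and 33.9 CPM in proximal cells (log2 fold change -6.58, SE 0.75, edgeR adjusted p = 9.11e-05). Ugt2b5 stood at 1.70, 1.35 and 0 CPM, against 130.1, 57.7 and 53.0 CPM (edgeR adjusted p = 0.000179). Both encode glucuronosyltransferases of a multigene family, so reads may have been split between near-identical copies and the values of each gene are uncertain. Mep1b, a brush border protease, had 0, 3 and 0 counts in distal cells, against 12, 18 and 134 counts in proximal cells (91.8, 37.1 and 18.7 CPM, edgeR adjusted p = 0.0408). Without Drop-seq, Ace and Mep1b lost their calls, at adjusted p = 0.0939 for Ace and 0.279 for Mep1b. Leaving out Drop-seq, 10x or C1 changed the number of genes called in this comparison to 266, 329 or 1223, and 152 were called with no library term.

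**Figure D3:**
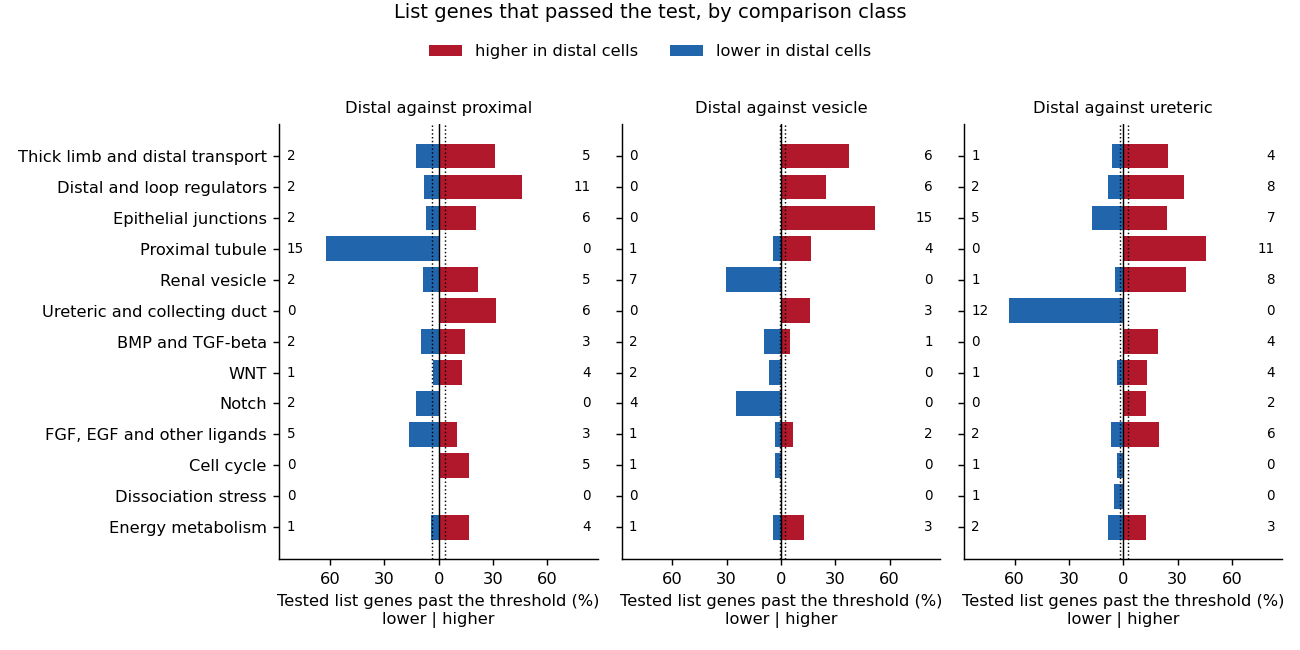
Percentage of the tested genes (horizontal axis) of each of 13 lists (rows) that were higher (right of 0) or lower (left of 0) in distal cells at an edgeR adjusted p under 0.05, against proximal, vesicle and ureteric cells, 1 panel each. Numbers at the edges are gene counts and dotted lines the percentage over all genes tested. Of the junction and epithelial genes, 15 of 29 were higher against vesicle cells. Lower were 15 of 24 proximal genes against proximal cells and 12 of 19 ureteric genes against ureteric cells. The proximal and ureteric classes were chosen by markers of the same cell types, so these lower counts are not independent of the choice.

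Against vesicle cells, the distal cells had more of the transcripts of epithelial junctions and of the sodium pump, and less of 4 genes of the Notch pathway. Of the genes tested, 207 were higher (2.05%) and 64 lower (0.633%) in distal cells, or 2.68% in all. Of 29 junction and epithelial genes, 15 were higher and 0 lower, with a median log2 fold change of 1.53, against -0.035 over all genes tested. Cdh16, the kidney-specific cadherin, stood at 212, 277 and 109 CPM in distal cells, against 22.4, 40.7 and 22.5 CPM in vesicle cells (log2 fold change 2.72, SE 0.23, edgeR adjusted p = 8.60e-06). Cldn8 stood at 103, 128 and 89.5 CPM, against 7.31, 16.0 and 4.17 CPM (log2 fold change 3.77, SE 0.37, edgeR adjusted p = 4.24e-05). Epcam stood at 867, 584 and 283 CPM, against 249, 172 and 89.6 CPM in vesicle cells (log2 fold change 1.72, SE 0.20, edgeR adjusted p = 0.000118). Each of the 3 was higher in the distal cells of every library. Cldn19 stood at 41.7, 92.9 and 44.2 CPM, against 1.83, 0.727 and 0 CPM in vesicle cells (log2 fold change 6.82, SE 1.08, edgeR adjusted p = 0.00289). It lost its call without 10x (adjusted p = 0.0614). Cdh1, the cadherin of adherens junctions in epithelia, was higher by less (1.5005, SE 0.26, edgeR adjusted p = 0.00394). Its adjusted p was 0.0832 without Drop-seq and 0.159 without 10x.

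Of the 16 transport genes, 6 were higher and 0 lower (median log2 fold change 1.59). Atp1b1 stood at 967, 1382 and 162 CPM in distal cells, against 196, 164 and 23.6 CPM in vesicle cells (log2 fold change 2.69, SE 0.29, edgeR adjusted p = 7.52e-05). Fxyd2, of the same pump, stood at 181, 728 and 495 CPM, against 37.9, 102 and 143 CPM (log2 fold change 2.30, SE 0.28, edgeR adjusted p = 0.000232). Calb1 stood at 137, 323 and 539 CPM, against 19.6, 87.3 and 48.3 CPM in vesicle cells (log2 fold change 2.74, SE 0.34, edgeR adjusted p = 0.000285). All 3 were higher in the distal cells of every library, and without C1 the adjusted p was 0.0979 for Fxyd2 and 0.0614 for Calb1. Bsnd stood at 9.36, 31.0 and 18.7 CPM in distal cells, against 0.457, 1.45 and 0.0887 CPM in vesicle cells (log2 fold change 5.33, SE 1.24, edgeR adjusted p = 0.0437). It was not called without Drop-seq (0.210) or without 10x (0.466). In the metabolic list, where 3 of 24 genes were higher and 1 lower, Ldhb, a lactate dehydrogenase subunit, was higher by a modest and steady amount (1.07, SE 0.15, edgeR adjusted p = 0.000604).

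Of 24 regulators, 6 were higher and 0 lower than in vesicle cells (median log2 fold change 1.10). Tfcp2l1, a transcription factor of distal and collecting duct epithelium, stood at 136, 408 and 169.9 CPM in distal cells, against 10.1, 25.5 and 11.4 CPM in vesicle cells (log2 fold change 3.94, SE 0.35, edgeR adjusted p = 1.39e-05). Gata3 stood at 98.8, 133 and 96.1 CPM, against 12.3, 19.6 and 13.1 CPM (log2 fold change 2.87, SE 0.29, edgeR adjusted p = 5.06e-05). Ppargc1a, a coactivator of mitochondrial gene expression, stood at 74.1, 196 and 27.9 CPM, against 7.77, 16.0 and 1.154 CPM in vesicle cells (log2 fold change 3.74, SE 0.47, edgeR adjusted p = 0.000285). The values of the distal cells were the higher ones in each library for all 3 genes. Emx1, a homeobox gene, stood at 52.8, 76.7 and 11.7 CPM, against 0.914, 2.18 and 0.799 CPM in vesicle cells (log2 fold change 4.78, SE 0.70, edgeR adjusted p = 0.00106). Its adjusted p without 10x was 0.137. Irx1, a homeobox gene of the middle of the forming nephron, stood at 45.1, 147 and 1.70 CPM in distal cells, against 14.2, 56.7 and 2.04 CPM in vesicle cells, which was not past the threshold (log2 fold change 1.09, SE 0.47, edgeR adjusted p = 0.299).

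Of 23 genes of the vesicle and comma-shaped body, 7 were lower and 0 higher (median log2 fold change -1.35), and of 16 genes of the Notch pathway, 4 were lower and 0 higher (median -0.85); the 4 are in both lists. Hey1, a transcription factor induced by Notch, stood at 22.1, 14.8 and 11.3 CPM in distal cells, against 94.6, 116 and 123 CPM in vesicle cells (log2 fold change -2.88, SE 0.46, edgeR adjusted p = 0.00207). Lfng, a glycosyltransferase that modifies Notch receptors, stood at 21.3, 4.04 and 0 CPM, against 95.9, 136 and 8.08 CPM in vesicle cells (log2 fold change -3.82, SE 0.59, edgeR adjusted p = 0.00156). It lost its call without 10x (adjusted p = 0.122). The receptors Notch1 and Notch2 were lower as well (log2 fold change -1.27 and -1.35, SE 0.28 and 0.33, edgeR adjusted p = 0.0180 and 0.0419). Neither receptor was called without Drop-seq (0.159 for Notch1 and 0.387 for Notch2) or without 10x (0.339 for Notch1 and 0.633 for Notch2). The vesicle cells were chosen partly by the Notch ligands Dll1 and Jag1, which were not tested.

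The proximal list did not go one way against vesicle cells, with 4 of 24 genes higher and 1 lower. Pdzk1ip1, a small membrane protein of tubule epithelium, stood at 45.1, 151 and 83.3 CPM in distal cells, against 8.68, 12.4 and 3.19 CPM in vesicle cells (log2 fold change 3.70, SE 0.43, edgeR adjusted p = 0.000128). Ttc36 was higher (3.17, SE 0.46, edgeR adjusted p = 0.00105, but 0.0601 without 10x and 0.184 without C1). Osr2, a zinc finger transcription factor, was the lower gene, at 28.1, 16.1 and 9.78 CPM in distal cells, against 91.8, 394 and 183 CPM in vesicle cells (log2 fold change -3.45, SE 0.43, edgeR adjusted p = 0.000232, but 0.0545 without C1).

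Outside the lists, the kinase gene Cdkl1 stood at 116, 109 and 40.8 CPM in distal cells, against 2.28, 2.18 and 0 CPM in vesicle cells (log2 fold change 6.64, SE 0.81, edgeR adjusted p = 0.000232). Tmem213 stood at 69.0, 301 and 62.9 CPM, against 1.83, 14.54 and 0 CPM (log2 fold change 5.67, SE 0.81, edgeR adjusted p = 0.000889). Apoc1, an apolipoprotein gene, stood at 9.36, 45.8 and 17.2 CPM, against 1.83, 0.727 and 0.0887 CPM in vesicle cells (log2 fold change 5.04, SE 0.82, edgeR adjusted p = 0.00237). Muc1 stood at 19.6, 59.2 and 25.3 CPM in distal cells, against 0.457, 0.727 and 0 CPM in vesicle cells (edgeR adjusted p = 0.00941). Pgam2, a phosphoglycerate mutase gene, stood at 8.51, 28.3 and 9.14 CPM in distal cells and 0 CPM in vesicle cells (edgeR adjusted p = 0.0180), which is at least 6.21-fold in Drop-seq, at least 13.0-fold in 10x and at least 34.3-fold in C1. Of these 5 genes, Cdkl1 alone was called whichever library was left out: the adjusted p was 0.0868 for Tmem213 and 0.163 for Pgam2 without Drop-seq, and 0.0860 for Apoc1, 0.152 for Muc1 and 0.397 for Pgam2 without 10x.

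Among the lower genes outside the lists, Akr1c18, a hydroxysteroid dehydrogenase gene, had 0 counts in distal cells of all libraries, against 30, 15 and 359 counts in vesicle cells (13.7, 10.9 and 31.9 CPM, edgeR adjusted p = 0.00977). Oxtr, the oxytocin receptor, had 0, 1 and 1 counts in distal cells, against 67, 24 and 442 counts in vesicle cells (30.6, 17.5 and 39.2 CPM, edgeR adjusted p = 0.0159). Pou3f1, a transcription factor gene, had 1, 2 and 0 counts, against 42, 27 and 312 counts in vesicle cells (19.2, 19.6 and 27.7 CPM, edgeR adjusted p = 0.0265). Svopl stood at 7.66, 2.69 and 7.44 CPM in distal cells, against 39.7, 72.0 and 51.2 CPM in vesicle cells (log2 fold change -3.05, SE 0.52, edgeR adjusted p = 0.00319). Prnp, the prion protein gene, stood at 29.8, 12.1 and 0.850 CPM, against 90.5, 74.9 and 143 CPM (log2 fold change -3.33, SE 0.85, edgeR adjusted p = 0.0485). All 5 were lower in the distal cells of every library, and each lost its call without 1 library: without Drop-seq, the adjusted p was 0.0941 for Akr1c18, 0.167 for Oxtr and 0.245 for Pou3f1. Without 10x it was 0.0692 for Akr1c18, 0.182 for Pou3f1, 0.188 for Svopl and 0.677 for Prnp, and the log2 fold change of Prnp without C1 was -1.98. With Drop-seq, 10x or C1 left out, 103, 55 or 1255 genes were called against vesicle cells, and with no library term 3.

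Against ureteric cells, to which the distal end connects, the distal cells had more of the Iroquois and Emx1 homeobox genes and of the sodium pump subunits, and less of the genes of the ureteric tip. Of the genes tested, 282 were higher (2.79%) and 157 lower (1.55%) in distal cells, or 4.34% in all. Of 24 regulators, 8 were higher and 2 lower (median log2 fold change 0.77, against -0.011 over all genes tested). Irx1 stood at 45.1, 147 and 1.70 CPM in distal cells, against 0, 1.63 and 0 CPM in ureteric cells (edgeR adjusted p = 0.000355). The ratio was at least 8.24-fold in Drop-seq, 90.0 in 10x (counting interval 15.8 to 3588) and at least 2.28-fold in C1. Emx1 stood at 52.8, 76.7 and 11.7 CPM, against 0, 3.26 and 0 CPM in ureteric cells (edgeR adjusted p = 0.00075). The ratio was at least 9.64-fold in Drop-seq, 23.5 in 10x (counting interval 6.22 to 199) and at least 15.6-fold in C1. Irx2 and Irx3 were higher as well, at 4.41 and 3.55 (SE 0.98 and 0.64, edgeR adjusted p = 0.0162 and 0.00368). Emx1 was called whichever library was left out. The adjusted p without 10x was 0.0869 for Irx1, 0.374 for Irx2 and 0.0787 for Irx3, and that without Drop-seq was 0.133 for Irx2.

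Gata3 and Calb1 were both present in distal cells and lower there than in ureteric cells. Gata3 stood at 98.8, 133 and 96.1 CPM in distal cells, against 338, 398 and 371 CPM in ureteric cells (log2 fold change -1.78, SE 0.26, edgeR adjusted p = 0.000685). Calb1 stood at 137, 323 and 539 CPM, against 1863, 2496 and 3858 CPM (log2 fold change -3.16, SE 0.33, edgeR adjusted p = 3.03e-05). Every distal sum of both genes lay below every ureteric sum. The transport genes as a group were 4 higher and 1 lower of 16 (median log2 fold change 0.89), the lower one being Calb1. Fxyd2 stood at 181, 728 and 495 CPM in distal cells, against 1.82, 1.63 and 11.5 CPM in ureteric cells (log2 fold change 6.07, SE 0.41, edgeR adjusted p = 3.37e-07, but 0.0638 without C1), and Atp1b1 at 967, 1382 and 162 CPM, against 91.2, 89.6 and 37.9 CPM (log2 fold change 3.05, SE 0.31, edgeR adjusted p = 2.25e-05).

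The list of junction and epithelial genes was divided against ureteric cells, with 7 higher and 5 lower of 29 (median log2 fold change -0.32). The higher genes were claudins and cadherins (Cldn1, Cldn2, Cldn10, Cldn16, Cldn19, Cdh1 and Cdh2). The lower genes were the claudin Cldn3, Epcam and the keratin genes Krt8, Krt18 and Krt19. Both claudins of the thick ascending limb pore were higher in distal cells. Cldn16 stood at 35.8, 68.6 and 15.3 CPM in distal cells, against 3.65, 0 and 0 CPM in ureteric cells (edgeR adjusted p = 0.0102). The ratio was 9.80 in Drop-seq (counting interval 2.55 to 83.5), at least 14.04-fold in 10x and at least 20.5-fold in C1. Cldn19 stood at 41.7, 92.9 and 44.2 CPM, against 5.47, 3.26 and 0 CPM (log2 fold change 5.32, SE 1.07, edgeR adjusted p = 0.0105). Without 10x the adjusted p was 0.254 for Cldn16 and 0.102 for Cldn19. Of the lower genes, Krt18 stood at 117, 273 and 119 CPM in distal cells, against 442, 684 and 882 CPM in ureteric cells (log2 fold change -2.13, SE 0.30, edgeR adjusted p = 0.000464).

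Of 19 genes of the ureteric bud and collecting duct, 12 were lower and 0 higher (median log2 fold change -1.78). The ureteric cells were chosen by 2 or more of Ret, Wnt11, Krt23 and Ehf and the distal cells by fewer than 2. These 4 genes were not tested, but the count of this list is not independent of the choice. Etv4 and Etv5, transcription factors downstream of Ret in the ureteric tip, stood at 44.3, 28.3 and 11.7 CPM and 42.6, 26.9 and 54.9 CPM in distal cells, against 232, 279 and 53.1 CPM and 175, 163 and 269 CPM in ureteric cells (log2 fold change -2.61 and -2.28, SE 0.35 and 0.25, edgeR adjusted p = 0.000316 and 4.13e-05). The secreted protein gene Mia was lower in distal cells, at 3.41, 6.73 and 26.4 CPM, against 124, 173 and 329.6 CPM in ureteric cells (log2 fold change -4.19, SE 0.35, edgeR adjusted p = 3.79e-06). Hoxb7, a homeobox gene of the ureteric epithelium, was lower by less (-1.17, SE 0.22, edgeR adjusted p = 0.00450, but 0.0636 without Drop-seq).

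Of the 24 proximal genes, 11 were higher and 0 lower in distal than in ureteric cells (median log2 fold change 2.29). The brush border enzyme genes Ggt1 and Dpp4 stood at 55.3, 98.2 and 83.1 CPM and 92.8, 52.5 and 79.9 CPM in distal cells, against 3.65, 8.15 and 4.24 CPM and 20.1, 14.7 and 16.2 CPM in ureteric cells (log2 fold change 3.91 and 2.15, SE 0.47 and 0.29, edgeR adjusted p = 0.000131 and 0.000319). Ttc36 was higher too (5.43, SE 0.71, edgeR adjusted p = 0.000292, and 0.277 without C1). Beside this, the 7 markers that defined the proximal class summed to 67.3, 113 and 163 CPM in distal cells, against 9.12, 6.52 and 4.98 CPM in ureteric cells. What part cells or free RNA of proximal type have in these 11 genes was not tested.

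Signalling genes were mixed, beside 2.79% higher and 1.55% lower over all genes tested. In the BMP and TGF-beta list 4 of 21 were higher and 0 lower, among them Bmp2, a BMP ligand, at 64.7, 21.5 and 11.5 CPM in distal cells, against 1.82, 1.63 and 1.25 CPM in ureteric cells (log2 fold change 3.84, SE 0.62, edgeR adjusted p = 0.00148, but 0.132 without Drop-seq), and Id2, an inhibitor of helix-loop-helix factors, at 1086, 377 and 439 CPM, against 270.1, 161 and 211 CPM (log2 fold change 1.41, SE 0.20, edgeR adjusted p = 0.00048). In the WNT list 4 of 31 were higher and 1 lower. Among ligands and receptors of other families, 6 of 30 were higher and 2 lower, and Igfbp2, which binds insulin-like growth factors, was one of the lower pair (-2.08, SE 0.27, edgeR adjusted p = 0.00028). Of 30 cell cycle genes 0 were higher and 1 lower, and of 19 dissociation stress genes 0 were higher and 1, Ier2, lower.

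Outside the lists, the 5 genes named for the largest fitted increases were at 0 in the ureteric cells of all 3 libraries. As above, the rule of naming favoured such genes. Papss2, which makes the sulfate donor for sulfation, stood at 34.9, 26.9 and 17.6 CPM in distal cells (edgeR adjusted p = 0.000256), Afp, alpha-fetoprotein, at 34.1, 33.6 and 14.03 CPM (0.000404), Frmd4b at 22.1, 17.5 and 24.0 CPM (0.00126), Asb9 at 14.47, 13.5 and 16.2 CPM (0.000216) and Tmem25 at 23.0, 13.5 and 15.5 CPM (0.00103). Against a floor of 3 counts per library these are at least 2.64-fold (Asb9) to 6.38-fold (Papss2) in Drop-seq, 2.75-fold (Asb9 and Tmem25) to 6.88-fold (Afp) in 10x and 18.8-fold (Afp) to 32.1-fold (Frmd4b) in C1. All 5 were called whichever library was left out.

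Among lower genes outside the lists, S100a6, a calcium-binding protein gene, stood at 9.36, 13.5 and 1.06 CPM in distal cells, against 186, 323 and 438 CPM in ureteric cells (log2 fold change -5.88, SE 0.56, edgeR adjusted p = 1.25e-05). It was called whichever library was left out. Samd5 had 0 counts in distal cells, against 25, 10 and 69 counts in ureteric cells (45.6, 16.3 and 17.2 CPM, edgeR adjusted p = 0.0180). Fgf12, an intracellular factor of the FGF family, had 0, 1 and 0 counts, against 15, 20 and 40 counts in ureteric cells (edgeR adjusted p = 0.0157). Hs3st3a1, a heparan sulfate sulfotransferase gene, stood at 2.55, 1.35 and 0 CPM, against 38.3, 39.1 and 23.2 CPM (log2 fold change -5.34, SE 1.11, edgeR adjusted p = 0.0102). Ppp1r14c, an inhibitor of a protein phosphatase, stood at 2.55, 1.35 and 0 CPM, against 29.2, 21.2 and 8.22 CPM in ureteric cells (log2 fold change -4.97, SE 1.32, edgeR adjusted p = 0.0426). The 4 genes other than S100a6 lost their calls without Drop-seq, at adjusted p = 0.195 for Samd5, 0.236 for Fgf12, 0.07998 for Hs3st3a1 and 0.233 for Ppp1r14c. They also lost them without 10x, at 0.0724 for Samd5, 0.164 for Fgf12, 0.130 for Hs3st3a1 and 0.245 for Ppp1r14c. Against ureteric cells, 188 genes were called without Drop-seq, 158 if 10x was left out and 899 if C1 was left out. With no library term 44 were called, and 142 when only distal and ureteric cells were fitted.

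Within the distal cells, those with Slc12a1 detected had little Gata3 and Calb1 and more Fxyd2 than those without. Slc12a1 is one of the 7 genes that chose the cells, and a cell without it had to hold 3 of the other 6 genes while a cell with it needed only 2, so the rule itself sets the kinds apart in its own genes. Slc12a1 was detected in 40 distal cells and Gata3 in 41 of 117 in Drop-seq, and 1 cell had both. In 10x 47 distal cells had Slc12a1, 34 had Gata3 and 0 of 102 had both, and in C1 3 had Slc12a1, 5 had Gata3 and 0 of 20 had both. A count of 0 allows a share of up to 2.94% in 10x and 15% in C1. Calb1 was detected in 24, 20 and 3 distal cells, of which 0, 3 and 0 also had Slc12a1. Slc12a1 lies at chr2:125152505-125230002 on the plus strand and Gata3 at chr2:9857078-9890034 on the minus strand of GRCm38, on 1 chromosome, and Calb1 lies at chr4:15881264-15908064 on the plus strand. The RefSeq start of Gata3 used for the sequence above lies inside this longer extent of the gene.

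Both kinds of distal cell had a sum only in Drop-seq and 10x, since C1 had 3 cells with Slc12a1 and a sum needed 10. The fit also held the C1 sum of 17 cells without Slc12a1 and the proximal, vesicle and ureteric sums of all 3 libraries. C1 and the other classes therefore enter the fitted values and their spread. Of 9677 genes tested, 1 was higher (0.0103%) and 7 lower (0.0723%) in cells with Slc12a1, or 0.0827% in all, and values below are in Drop-seq and 10x order. This balance of directions was not kept under several alternatives: 33 were higher and 38 lower without C1, 115 and 92 with only the 2 kinds of cell in the fit, 20 and 29 without the filter on low counts, and 8 and 7 without the cells that met another class rule. With the cells of both kinds held to 3 or more of the other 6 genes, which left 34 and 42 cells with Slc12a1, 2 were higher and 7 lower, and these included all 8. With C1 detection at 1 read, C1 had 14 cells with Slc12a1 and 26 without, so C1 also had a sum of both kinds. That fit called 0 genes higher and 4 lower, the 4 all among the 8. Fxyd2, the 1 gene higher in the main fit, was therefore not called there. Gata3 stood at 2.83 and 0 CPM in distal cells with Slc12a1, against 140.1 and 227 CPM in those without (edgeR adjusted p = 0.000211), lower by a ratio of 49.6 in Drop-seq (counting interval 8.72 to 1974) and at least 23.3-fold in 10x. Calb1 stood at 0 and 9.76 CPM in cells with Slc12a1, against 196 and 544 CPM in those without (edgeR adjusted p = 0.000211), lower at least 23.1-fold in Drop-seq and by a ratio of 55.8 in 10x (counting interval 18.8 to 272). Fxyd2 was the gene that was higher, at 409.9 and 1334 CPM in cells with Slc12a1, against 82.8 and 301 CPM in those without (log2 fold change 2.06, SE 0.30, edgeR adjusted p = 0.00691). For all 3 the groups kept apart in both libraries. Without Drop-seq the adjusted p was 0.0549 for Gata3 and 0.111 for Calb1, without 10x it was 0.334 for Fxyd2, and with C1 left out of the fit it was 0.0748 for Calb1 and 0.285 for Fxyd2.

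**Figure D4:**
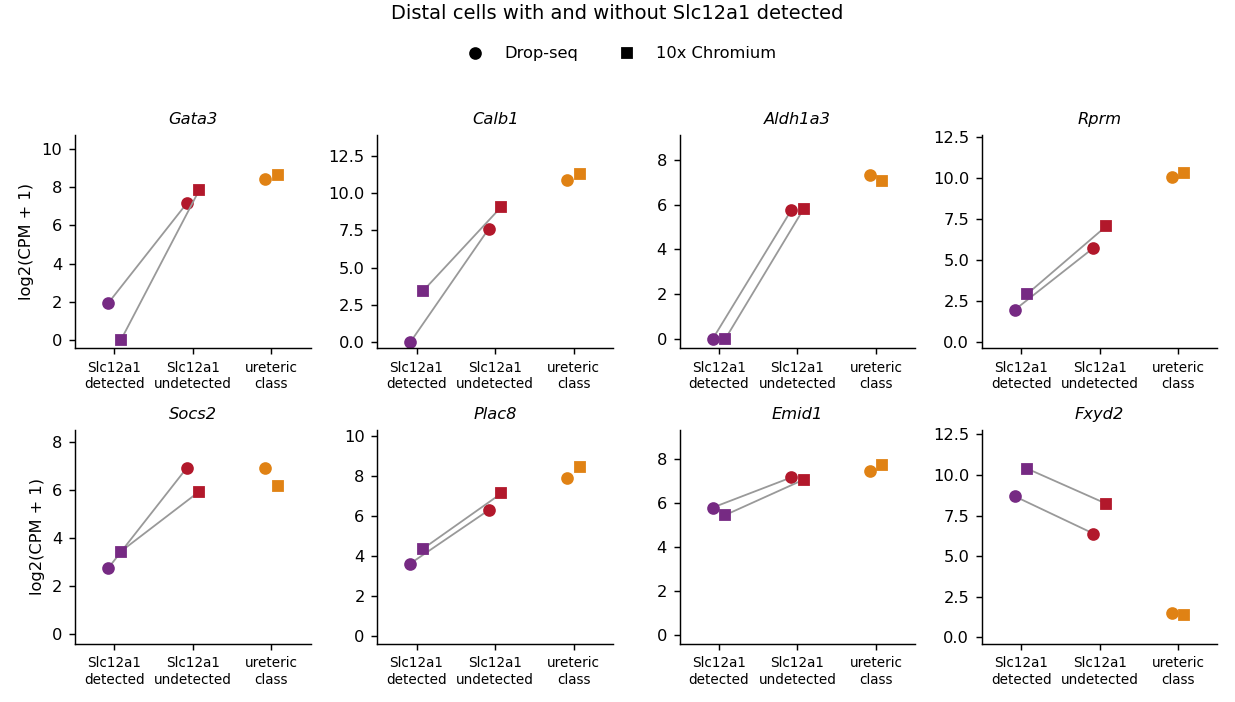
Level of 8 genes as log2(CPM + 1) on the vertical axis in distal cells with Slc12a1 detected, distal cells without it and ureteric cells, with 1 point for each of Drop-seq and 10x. Fxyd2 stands higher in the cells with Slc12a1 and the other 7 genes lower, and Gata3 and Calb1 in the cells without Slc12a1 lie below their levels in ureteric cells.

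The other 5 genes that passed were all lower in the cells with Slc12a1. Aldh1a3, an enzyme that makes retinoic acid, had 0 counts in them, against 43 and 24 counts in cells without Slc12a1 (52.4 and 55.1 CPM, edgeR adjusted p = 0.00864). Rprm, a gene linked to cell cycle arrest, stood at 2.83 and 6.51 CPM, against 51.2 and 129 CPM in cells without Slc12a1 (edgeR adjusted p = 0.00691). Socs2, a suppressor of cytokine signalling, stood at 5.65 and 9.76 CPM, against 118 and 59.7 CPM (log2 fold change -3.62, SE 0.60, edgeR adjusted p = 0.0124). Plac8 stood at 11.3 and 19.5 CPM, against 78.0 and 140.0 CPM in cells without Slc12a1 (log2 fold change -3.02, SE 0.41, edgeR adjusted p = 0.00184). Emid1, a secreted matrix protein gene, stood at 53.7 and 42.3 CPM, against 140.1 and 131 CPM (log2 fold change -1.53, SE 0.27, edgeR adjusted p = 0.0224). Each was lower in both libraries, and each lost its call when either was left out, which leaves a single library with both sums. The adjusted p without Drop-seq was 0.569 for Aldh1a3, 0.210 for Rprm, 1 for Socs2, 0.146 for Plac8 and 0.838 for Emid1. Without 10x it was 0.523 for Aldh1a3, 0.596 for Rprm, 0.166 for Socs2, 0.429 for Plac8 and 1 for Emid1.

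Of 20 tested transport genes of the thick limb and distal tubule, 1 was higher (Fxyd2) and 1 lower (Calb1) in cells with Slc12a1, and the median log2 fold change was 0.70, against -0.033 over all genes tested. The next 4 genes, picked as examples, did not pass the threshold. Kcnj1 stood at 59.4 and 91.1 CPM in them, against 4.87 and 20.7 CPM in cells without Slc12a1 (log2 fold change 2.86, SE 1.20, edgeR adjusted p = 1). Cldn16 stood at 93.3 and 153 CPM, against 10.96 and 9.18 CPM (log2 fold change 4.39, SE 1.16, edgeR adjusted p = 0.349). Irx1 stood at 110.2 and 241 CPM, against 17.1 and 80.3 CPM (log2 fold change 2.29, SE 0.46, edgeR adjusted p = 0.0806). All 3 pairs went the same way in both libraries. Scnn1b, a subunit of the epithelial sodium channel of the connecting tubule and collecting duct, had 0 counts in the cells with Slc12a1, against 20 and 32 counts in those without (24.4 and 73.5 CPM, edgeR adjusted p = 0.349).

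Several measures moved with this division. Median depth was 7468 and 6048 UMIs in cells with Slc12a1, against 9936 and 8028 UMIs in those without. The 4 ureteric markers summed to 11.3 and 6.51 CPM, against 28.0 and 36.7 CPM in cells without Slc12a1, while they summed to 787 and 674.5 CPM in ureteric cells. The proximal markers summed to 28.3 and 32.5 CPM in cells with Slc12a1, against 84.1 and 169.9 CPM in those without. The summed podocyte markers went the other way, at 96.1 and 124 CPM in cells with Slc12a1, against 28.0 and 13.8 CPM in those without. These sums rest on few genes. Of the 7 podocyte markers, 2 and 3 were above 0 in cells with Slc12a1 and 4 and 2 in those without. The red cell markers summed to 438 and 19.5 CPM, against 5639 and 41.3 CPM in cells without Slc12a1. Leaving out the distal cells with 1 ureteric marker gave 5 genes called, all among the 8. With no library term 0 were called by edgeR, 206 being at an unadjusted p under 0.05, and DESeq2 called 18, of which 7 were higher and 11 lower. The part of depth and of ureteric, proximal, red cell and podocyte transcripts in the division was not tested.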

How the data were processed

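The data are 3 single-cell RNA libraries, 1 each from Drop-seq, 10x Chromium and Fluidigm C1, from wild-type kidneys of mouse embryos (E14.5). The authors deposited whole-number counts per gene and cell, which are UMIs in Drop-seq and 10x and, with no molecular identifier stated, reads in C1. Per the submitters' processing notes, the tools were Cell Ranger 1.3.0 (10x) and Bowtie2 2.2.7 (the other libraries), on build mm10. Every sample carries the Drop-seq preparation text, and neither the preparation of the other libraries nor the counting tool and annotation is given in the sources used here. The normalized tables were not analysed. The 10x table lists 121 rows with a repeated symbol, which were summed, and the C1 table lists no mitochondrial gene. The C1 cells carry 2 kinds of name, HT (6 distal cells of 562) and E14 (14 of 332), which no source used here explains.

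Cells with 500 or more genes were kept, which removed 36 of 2000 barcodes in Drop-seq, 43 of 2295 in 10x and 0 of 894 in C1; no barcode was shared between libraries. Doublets were not removed: Scrublet in scanpy 1.11.5, at an expected 6%, called 0.255% of cells in Drop-seq and 0.266% in 10x, too few to count as a working run, and 1.23% in C1, and it called no distal cell. A comparison class took cells with its markers, fewer than 3 distal markers and no other class rule met, red cells aside. Counts were summed per library and class where at least 10 cells were present. CPM is per 1000000 counts of the 17864 genes shared by the 3 tables. The sums were tested in edgeR 4.0.16 (R 4.3.3; quasi-likelihood F test, TMM scaling, filterByExpr, library as a term), with Benjamini-Hochberg adjustment over all genes tested and a threshold of 0.05. The 4 classes shared 1 fit of 12 sums with 6 residual degrees of freedom, and the division by Slc12a1 used 14 sums with 7. The SE is the log2 fold change over the root of F. Counts of these sums were simulated with the class differences removed and a single fixed spread for all genes and platforms. Only genes above a low count were changed. The fit of the comparison with proximal cells recovered 69.4% of 85 genes changed by 2 on the log2 scale. It recovered 3.37% of 89 changed by 1 (10002 genes), and the Slc12a1 fit 24.7% of 85 and 2.47% of 81 (9229 genes). The spread of the measured sums may differ, so these rates need not hold for them. Intervals are exact at 95% and cover counting error only. For ratios and bounds in C1 they treat reads as independent counts, which reads without molecular identifiers need not be.

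Named genes were, in each comparison, the 15 members of 13 lists (356 genes) with the smallest adjusted p and, outside them, the 5 largest changes in each direction with 10 or more counts per library on the higher side, all in the same direction in every library; a few genes under this rule or in a class rule are not reported here. The members and the lists were chosen with earlier results of these data known. Alternatives were DESeq2 1.42.0, no filter on low counts, each library left out, no library term, only the 2 classes in the fit, other limits on cells and markers, and 3 alternatives added after seeing the data (barcodes over 3 times the median depth left out, distal cells with a ureteric marker left out, and, for the division by Slc12a1, both kinds held to the same number of other markers).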

Additional observations from a re-analysis of the deposited data

How the results depend on the processing

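The comparisons between classes were repeated under 14 alternatives and the division by Slc12a1 under 15, and 0 results turned direction. Against proximal cells, 714 genes were called and between 266 and 1223 with 1 library left out; 152 were called with no library term, 446 with the C1 name groups as separate libraries and 430 with C1 detection at 1 read. Against vesicle cells, 271 were called and between 55 and 1255 with 1 library left out; 492 were called by DESeq2, 417 without the filter on low counts and 3 with no library term. Against ureteric cells, 439 were called and between 158 and 899 with 1 library left out. The number was 44 with no library term, 142 with only the 2 classes in the fit, 134 with the C1 name groups apart and 170 with C1 detection at 1 read. With the name groups apart, neither C1 group had both a distal and a ureteric sum. With C1 detection at 1 read, C1 had 6 proximal and 7 ureteric cells, too few for a sum. C1 therefore gave no pair of sums for the 134, the 170 or the 430 against proximal cells. For the division by Slc12a1, 8 were called and between 1 and 71 with 1 library left out. It gave 18 by DESeq2, 49 without the filter, 0 with no library term, 207 with only the 2 kinds of cell in the fit, 15 without distal cells that met another class rule, 4 with the C1 name groups apart, 4 with C1 detection at 1 read and 5 without distal cells that had a ureteric marker. With cells of both kinds held to 3 or more of the other 6 genes, an alternative chosen after seeing the data, 9 were called. Leaving out C1 left fewer genes to test between classes (8594 against 10109). The cause of the changes in the number of genes called was not tested under any alternative. The share of cells that met the rule was 3.79% in Drop-seq and 0.587% in C1 after thinning, 3.87%, 3.33% and 1.12% in Drop-seq, 10x and C1 with 4 or more markers, and 4.47% in C1 with detection at 1 read. Distal cells that met another class rule left out gave 660, 403 and 346 genes against proximal, vesicle and ureteric cells. Barcodes over 3 times the median depth left out, an alternative chosen after seeing the data, gave 689, 393 and 441, and the one without distal cells that had a ureteric marker gave 654, 295 and 476. The library term pairs the classes summed within each library; replicate numbers pair nothing, since each platform has 1 library.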

Other observations

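The remaining gene lists are given here by their counts at an edgeR adjusted p under 0.05, with the genes named after their values were seen. Against proximal cells, where 3.53% of all genes were called in each direction, the distal cells were higher in 6 of 19 ureteric genes (among them Gata3, Etv4, Etv5, Gfra1 and Pax2) and lower in 0. In the vesicle and comma-shaped body list 5 of 23 were higher (Ccnd1, Bmp2, Sox9, Bmper and Npy) and 2 lower (Lfng and Ezr). The BMP and TGF-beta list had 3 of 21 higher and 2 lower, the WNT list 4 of 31 higher and 1 lower, and the Notch list 0 of 16 higher and 2 lower (Lfng and Nrarp). Among other ligands and receptors 3 of 30 were higher and 5 lower, and in the metabolic list 4 of 24 were higher (Cycs, Pkm, Hk1 and Aldoa) and 1, Mdh1, lower.

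Against vesicle cells, 2.05% of all genes tested were higher and 0.633% lower. Of 19 ureteric genes, 3 were higher in distal cells (Gata3, Mia and Lgals3) and 0 lower. The BMP and TGF-beta list had 1 of 21 higher, Id2, and 2 lower, Bmp4 and Bambi, and the WNT list had 0 of 31 higher and 2 lower, Lrp4 and Sfrp2. Among other ligands and receptors 2 of 30 were higher (Kitl and Spp1) and 1, Fgfr1, lower. Of 30 cell cycle genes 0 were higher and 1, Mcm7, lower, and of 19 dissociation stress genes 0 passed in either direction.

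Against ureteric cells, 2.79% of all genes tested were higher and 1.55% lower. Of 23 genes of the vesicle and comma-shaped body, 8 were higher (Dkk1, Bmp2, Cdh4, Hes5, Hey1, Bmper, Sfrp2 and Uncx) and 1, Sox9, was lower. Of 16 Notch genes 2 were higher (Hes5 and Hey1) and 0 lower, and in the metabolic list 3 of 24 were higher (Cox4i1, Cox6c and Atp5b) and 2 lower (Ldha and Pkm). Between distal cells with and without Slc12a1, the lists held 3 of the 8 genes called, Fxyd2, Calb1 and Gata3, and the other 10 lists, which exclude the transport, regulator and ureteric lists, had 0 in either direction.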
